A study of Mus musculus with 15 samples.

Results

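The genes described here carry cells through G2 and mitosis. Of 45 mitotic genes chosen by name, 38 were measured among the 16592 genes with a symbol on the array, and each was represented by whichever of its probes had the highest mean on the 15 arrays. By function, 10 of 11 listed genes of the kinetochore and spindle checkpoint were measured, 10 of 11 of mitotic entry and exit, 6 of 7 of the spindle, 3 of 4 of the chromosomal passenger complex, 5 of 6 of cytokinesis, and 4 of 6 of condensin and chromosome structure. Cenpf, Ccnb1, Ckap2, Aurkb, Racgap1, Smc4 and Mki67 were not analysed here.

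In dividing cells, Cdk1 and its cyclins start mitosis, condensin packs the chromosomes, kinetochores tie them to the spindle, and the spindle checkpoint holds back the anaphase-promoting complex until every chromosome is attached. The chromosomal passenger complex corrects faulty attachments, and proteins of the central spindle then guide cytokinesis. Genes of this kind are switched on together late in the cell cycle by MuvB complexes with B-Myb and FoxM1. In the small intestine their transcripts are known from the dividing cells of the crypts, while villus cells have left the cell cycle.

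RNA came from epithelium scraped off the muscle wall of the jejunum, the part of the small intestine between duodenum and ileum, in 15 mice, with 1 bead array per mouse. The 4 Brg1-Apc deficient mice carried VillinCreERT2 with Apc fl/fl and Brg1 fl/fl, the 3 Apc deficient mice carried VillinCreERT2 with Apc fl/fl and Brg1 +/+, the 4 Brg1 deficient mice carried VillinCreERT2 with Brg1 fl/fl, and the 4 control mice were negative for VillinCreERT2, with no Apc or Brg1 alleles given in their labels. The labels of the Brg1 deficient mice give no Apc alleles. VillinCreERT2 is a Cre recombinase made in gut epithelium that acts once tamoxifen is given, so other cells in a scrape keep their loxP-flanked alleles. All groups, the controls included, received tamoxifen in 4 daily injections of 80 mg/kg and were sampled on day 4. Since the controls lacked Cre, any effect of induced Cre alone is part of every difference from control. Brg1, the product of Smarca4, is an ATPase of the chromatin-remodelling SWI/SNF complexes, and Apc helps destroy beta-catenin, so its loss turns on Wnt signalling.

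Promoter stretches are shown for 9 of the genes, because the motifs through which MuvB complexes and NF-Y are known to act can be read in them. Each runs 5′ to 3′ from 100 bases before the annotated start to 30 bases after it. Capitals mark the core of the cell-cycle genes homology region, TTTGAA or its reverse complement TTCAAA, and the NF-Y box, CCAAT or its reverse complement ATTGG, and no 2 of the marked motifs overlap. Cdk1, Cdc20, Kif22, Kif11, Cenpa, Top2a and Prc1 hold both motifs and were above the background level of the arrays, Ttk holds both and was at background, and Nusap1 passed the test in 3 comparisons and holds neither.
Cdk1: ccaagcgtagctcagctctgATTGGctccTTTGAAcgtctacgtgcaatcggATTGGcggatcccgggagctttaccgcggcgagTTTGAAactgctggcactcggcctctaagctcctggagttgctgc
Cdc20: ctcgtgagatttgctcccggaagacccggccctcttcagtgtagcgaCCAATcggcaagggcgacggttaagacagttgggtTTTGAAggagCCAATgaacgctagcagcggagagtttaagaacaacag
Kif22: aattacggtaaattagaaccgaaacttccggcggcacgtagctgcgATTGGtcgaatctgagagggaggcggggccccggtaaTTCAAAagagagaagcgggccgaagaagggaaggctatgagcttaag
Kif11: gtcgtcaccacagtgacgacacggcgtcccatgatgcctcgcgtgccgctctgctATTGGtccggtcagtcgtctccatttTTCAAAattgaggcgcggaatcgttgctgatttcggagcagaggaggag
Cenpa: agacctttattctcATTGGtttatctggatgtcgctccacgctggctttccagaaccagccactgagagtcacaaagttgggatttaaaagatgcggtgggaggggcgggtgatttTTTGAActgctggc
Top2a: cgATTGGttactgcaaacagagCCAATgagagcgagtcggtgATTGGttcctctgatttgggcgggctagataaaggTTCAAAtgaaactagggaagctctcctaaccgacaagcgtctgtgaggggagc
Prc1: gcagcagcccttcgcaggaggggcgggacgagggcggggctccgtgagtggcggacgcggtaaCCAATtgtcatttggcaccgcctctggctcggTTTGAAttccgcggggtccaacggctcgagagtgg
Ttk: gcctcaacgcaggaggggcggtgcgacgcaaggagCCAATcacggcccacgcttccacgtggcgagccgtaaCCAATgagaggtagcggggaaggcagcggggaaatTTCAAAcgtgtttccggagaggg
Nusap1: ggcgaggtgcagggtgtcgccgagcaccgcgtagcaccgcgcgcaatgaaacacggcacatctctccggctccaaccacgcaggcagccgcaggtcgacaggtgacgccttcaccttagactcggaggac
In GRCm38.p6, the Cdk1 stretch is chr10:69352883-69353012 on the minus strand, Cdc20 chr4:118437314-118437443 (minus), Kif22 chr7:127042391-127042520 (minus), Kif11 chr19:37376282-37376411 (plus), Cenpa chr5:30666786-30666915 (plus), Top2a chr11:99024160-99024289 (minus), Prc1 chr7:80294351-80294480 (plus), Ttk chr9:83834589-83834718 (plus) and Nusap1 chr2:119618198-119618327 (plus).

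RefSeq promoters of GRCm38.p6, each 300 bases long from 250 before to 50 after the start, were found for 39 of the 45 genes, with 42 promoters in all. Ccna2, Tpx2, Aurkb, Incenp, Kif20a and Smc4 had no entry. On either strand TTTGAA lay in 32 of the 42 promoters (76.2%), against 17.9% of all 32851 promoters of that table, and CCAAT lay in 34 (81.0%), against 37.4%. Both lay in 69.0% of these promoters, against 6.95% of all. CCAAT lay 20 to 40 bases upstream of TTTGAA, first base to first base, in 19 of the 42 (45.2%), against 0.895% of all promoters. Over the 25 genes with any CCAAT upstream of TTTGAA in the window, the nearest lay 9 to 153 bases away, with a median of 31, and 13 of the 25 lay at 20 to 40. In Cdk1, TTTGAA began 71 and 15 bases upstream of the start and CCAAT 208, 80 and 48 bases upstream. Its nearest CCAAT upstream of TTTGAA lay 9 bases away. In Prc1, TTTGAA began 5 and CCAAT 37 bases upstream. TTTGAA lay in the promoters of 19 of the 23 genes above the background level of the arrays that had a promoter, and of 6 of the 11 at background. CCAAT lay in 16 of those 23 and in 10 of those 11. Birc5, Mad2l1, Ncaph, Nuf2 and Nusap1 held neither motif in this window. A match to these letters is a description of the sequence and shows neither binding nor a cause.

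**Figure D1:**
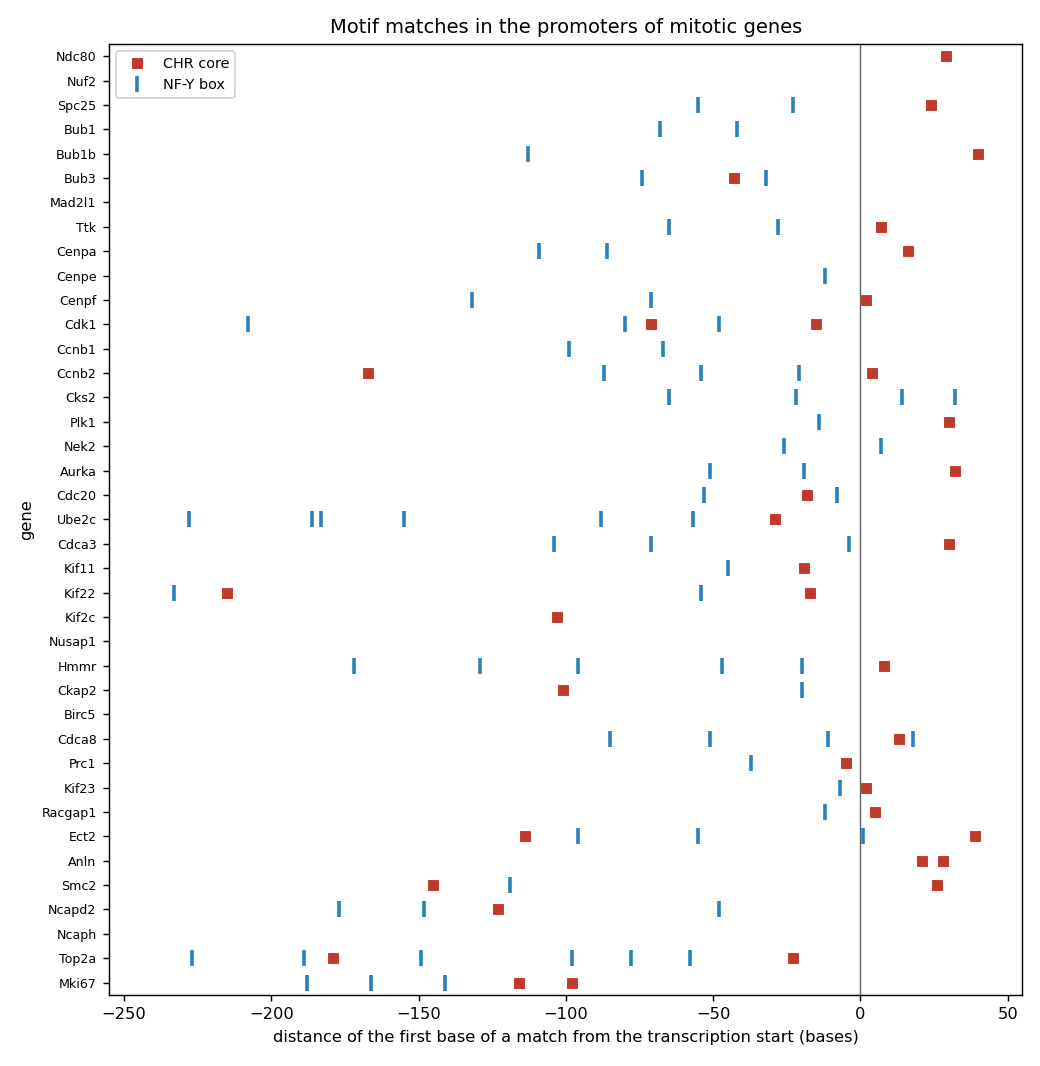
Matches to the 2 motifs in the promoters of 39 mitotic genes. The horizontal axis gives the distance of a match's first base from the annotated transcription start in bases, red squares mark the core of the cell-cycle genes homology region and blue ticks the NF-Y box, on either strand. Most matches lie within 100 bases of the start, and 5 genes have none.

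On the arrays, values are log2 expression values as the authors deposited them, and a difference of 1 is a 2-fold change. The array medians ran from 5.59 to 5.90, and the highest of them is called the background level below. By their mean over all 15 arrays, 24 of the 38 genes lay above it and 14 at or below it. Just inside were Spc25 at 6.07 and Ndc80 at 6.58, and just outside were Bub1 and Nuf2 at 5.57 each and Tpx2 at 5.53. Where a group lies at background, the size of its difference from another group is uncertain. Replicates are separate mice, and the number of arrays limits the precision.

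Smarca4, the gene deleted in the Brg1 groups, had 6.04, 6.10, 6.16 and 6.04 in Brg1-Apc deficient mice, 8.40, 8.17 and 7.88 in Apc deficient mice, 6.03, 6.18, 6.22 and 6.36 in Brg1 deficient mice, and 7.73, 7.63, 7.35 and 7.51 in control mice. Brg1-Apc deficient and Brg1 deficient arrays lay below every other array, as labelled. The 7 measured epithelial markers, all above background in every group, averaged 11.10 to 12.04 on every array. The values of Brg1 deficient replicate 4 were compressed, with 1.23 between their quartiles where the other arrays had 1.89 to 2.56. Without it, 4 of the 38 mitotic genes fell in Brg1 deficient relative to control mice with a median of -0.58, where 6 fell with it, and 15 rose in Brg1-Apc deficient relative to Brg1 deficient mice with a median of 0.76, where 15 rose with it. Markers of pancreatic acinar cells averaged up to 10.54 on a control array and those of smooth muscle up to 9.98 on another. Slide 1 held replicates 1 and 2 of every group, and slide 2 held the other arrays, of which 1 was Apc deficient. No position on a slide held more than 1 genotype, so position and genotype cannot be told apart.

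The mitotic genes above background had their highest means in Apc deficient epithelium and their lowest in Brg1 deficient epithelium. This order at both ends held for all 24 of them, 18 with Brg1-Apc deficient above control and 6, Spc25, Bub3, Cdk1, Plk1, Ncapd2 and Top2a, with control above Brg1-Apc deficient. The Brg1-Apc deficient mean lay nearer to control than to Apc deficient for most of the 24 genes. For Kif22, Cdca3, Aurka, Cdc20 and Kif2c it lay nearer to Apc deficient. For the 14 genes at background, only Tpx2 had Apc deficient highest and Brg1 deficient lowest. Averaged over the 38 genes and set against the control mean, the arrays stood 0.16 to 0.30 higher in Brg1-Apc deficient mice, 0.83 ± 0.15 higher in Apc deficient mice (SD, n = 3), and between -1.17 and -0.06 in Brg1 deficient mice, while single control arrays ran from -0.40 to 0.28. In a bulk scrape, fewer dividing cells and less RNA per dividing cell cannot be told apart.

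**Figure D2:**
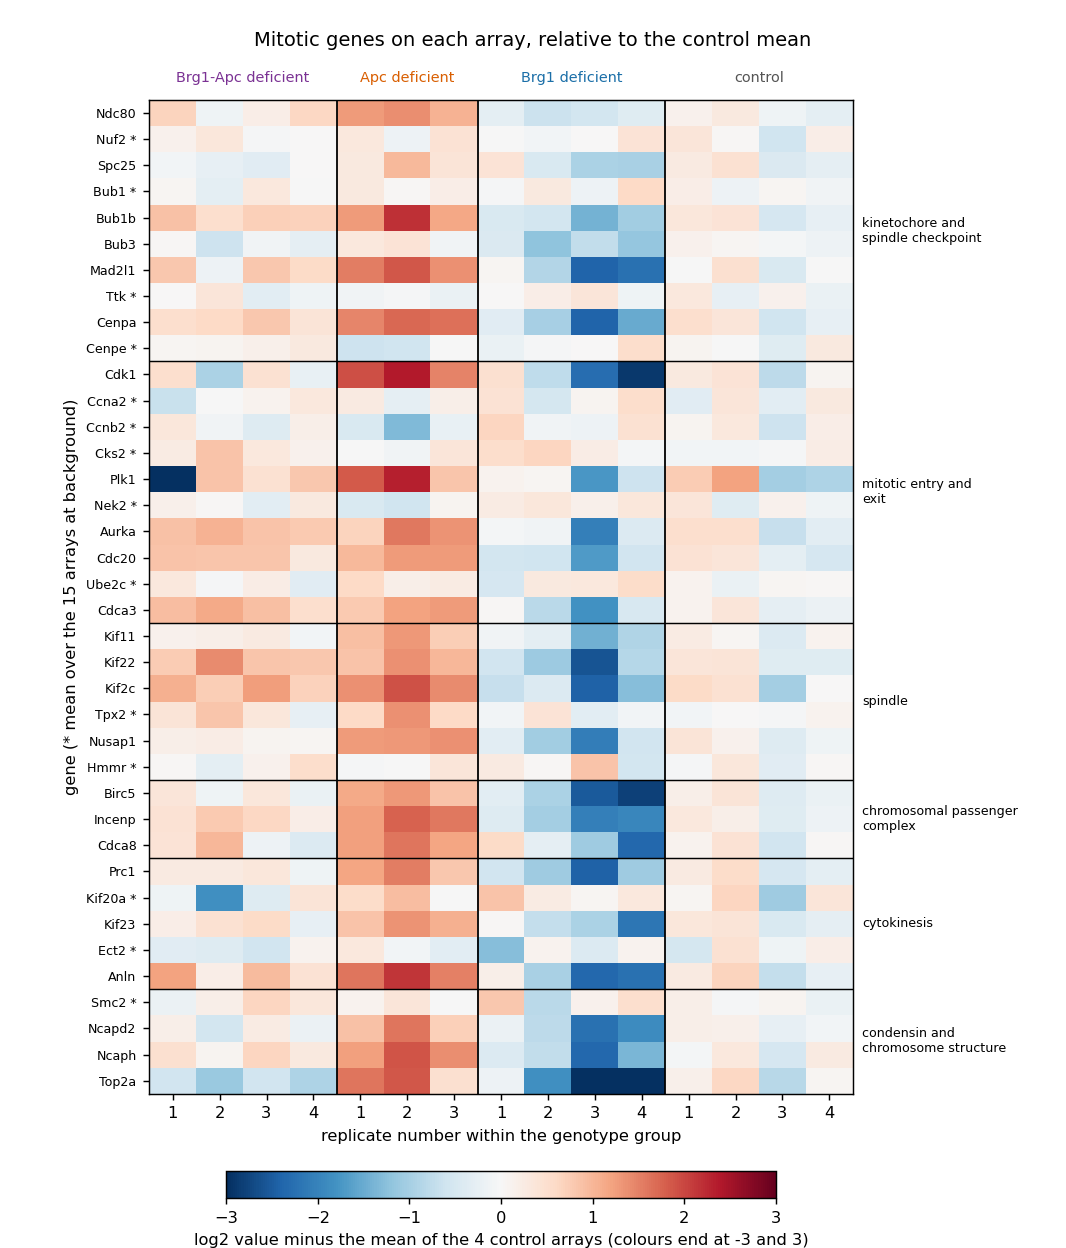
The 38 measured mitotic genes on each of the 15 arrays, in rows by function, with genotype groups and replicates in columns. Colour gives the log2 value minus the mean of the 4 control arrays, and an asterisk marks genes whose mean over the 15 arrays was at background. Apc deficient columns are mostly red and Brg1 deficient replicates 3 and 4 mostly blue, while the asterisked rows are mostly pale.

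In Apc deficient relative to control mice, 15 of the 38 genes rose and 0 fell by limma with Benjamini-Hochberg adjustment over all probes, against 8.14% of all genes that rose and 7.09% that fell. Their median difference was 1.08 and the range -0.67 to 1.93. The 15 were Ndc80, Bub1b, Mad2l1, Cenpa, Cdk1, Cdc20, Cdca3, Kif11, Kif2c, Tpx2, Nusap1, Incenp, Prc1, Anln and Ncaph. Without Apc deficient replicate 2 there were 5, without Apc deficient replicate 1 there were 10, without control replicate 3 there were 7, and without control replicate 4 there were 9. Without control replicates 1 and 4, the arrays with the high smooth muscle and acinar markers, 7 rose. Ndc80, Bub1b, Cenpa, Nusap1 and Incenp passed whichever single array was left out. Cdc20 and Ncaph did not pass without Apc deficient replicate 2 (adjusted p = 0.0609 and 0.0624), nor did Kif2c without that array or control replicate 3 (0.0578 to 0.0980), or Kif11 without control replicate 3 or Apc deficient replicate 1 or 2 (0.0548 to 0.139). Anln (0.0525 to 0.117) and Prc1 (0.0962 to 0.176) did not pass without control replicate 3 or 4 or Apc deficient replicate 1 or 2, and Mad2l1 (0.0502 to 0.120) without any of the 3 Apc deficient arrays or control replicate 1, 3 or 4. Cdca3 ended without control replicate 1, 3 or 4 or Apc deficient replicate 2 or 3 (0.0569 to 0.129), Tpx2 without Apc deficient replicate 2 or any control array (0.0617 to 0.245), and Cdk1 without any Apc deficient or control array or Brg1-Apc deficient replicate 4 (0.0510 to 0.176).

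In Brg1 deficient relative to control mice, 6 of the 38 genes fell and 0 rose, against 2.50% of all genes that fell and 0.820% that rose. Their median difference was -0.73 and the range -2.31 to 0.36. The 6 were Bub3, Cenpa, Birc5, Incenp, Prc1 and Top2a. This count rested on single arrays: it was 0 without control replicate 1, control replicate 2 or Brg1 deficient replicate 3, 1 without control replicate 4, and 15 without Brg1 deficient replicate 1. It was 2 without Apc deficient replicate 1 or 2 or Brg1-Apc deficient replicate 1, 3 or 4, and 3 without Brg1 deficient replicate 2 or Apc deficient replicate 3. Without Brg1 deficient replicate 4 it was 4, and without both control replicates 1 and 4 it was 0. In each of these settings every gene past the test was lower in Brg1 deficient mice. Of the 15 arrays, leaving out any 1 of 3 ended the call of Incenp (adjusted p = 0.0722 to 0.0844), any 1 of 7 that of Bub3 (0.0552 to 0.0941), and any 1 of 11 that of Prc1 (0.0515 to 0.141). For Birc5 (0.05004 to 0.135) and Top2a (0.0506 to 0.142) it was any 1 of 12, and for Cenpa any 1 of 13 (0.0526 to 0.159). All 6 passed without Brg1 deficient replicate 1.

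When Brg1-Apc deficient mice were compared with Apc deficient mice, 2 of the 38 genes fell, Ndc80 and Nusap1, and 0 rose, against 3.89% of all genes that fell and 3.92% that rose. In this fit of all 15 arrays the share is near that of all genes, although the median of the 38 was -0.67 and that of all genes 0.05. An unadjusted p under 0.05 was reached by 21 of the 38, 19 of them lower and 2, Cenpe and Ccnb2, higher, where 21.9% of all genes reached it in either direction. The count was 0 without Apc deficient replicate 1 or 2 or Brg1-Apc deficient replicate 3, and 1 without Brg1-Apc deficient replicate 1, 2 or 4. It was 9 without Brg1 deficient replicate 1, 6 without replicate 3 and 7 without replicate 4 of that group, which enter only through the shared estimate of the spread. Ndc80 had an adjusted p of 0.0509 to 0.121 without Brg1-Apc deficient replicate 2 or 3 or Apc deficient replicate 1 or 2. Fitted to the 2 groups alone, 15 of the 38 fell and 0 rose. In that fit 2553 of the 25695 probes passed in either direction, where 1844 did in the fit of all 15 arrays.

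When Brg1-Apc deficient mice were compared with Brg1 deficient mice, 15 of the 38 genes rose and 0 fell, against 5.53% of all genes that rose and 0.946% that fell, with a median of 0.90. The 15 were Ndc80, Bub1b, Mad2l1, Cenpa, Aurka, Cdc20, Cdca3, Kif22, Kif2c, Nusap1, Birc5, Incenp, Prc1, Anln and Ncaph. Leaving out single arrays ended the calls of Ndc80 (adjusted p = 0.0540 to 0.0985) and Nusap1 (0.0524 to 0.0658) without Brg1 deficient replicate 2 or 3 or Brg1-Apc deficient replicate 1, 3 or 4, and for Nusap1 also without Brg1-Apc deficient replicate 2. They ended that of Aurka without Brg1 deficient replicate 3 or Brg1-Apc deficient replicate 1, 2 or 3 (0.0503 to 0.0576), that of Birc5 without Brg1 deficient replicate 3 or Brg1-Apc deficient replicate 1 or 3 (0.0550 to 0.0695), and that of Mad2l1 without Brg1 deficient replicate 3 (0.0508). The other 10 genes passed whichever array was left out.

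Between Brg1-Apc deficient and control mice limma called 0 of the 38 genes, against 3.65% of all genes that rose and 3.39% that fell, and 6 of the 38 had an unadjusted p under 0.05, against 20.2% of all genes. Their median was 0.14, and 2 rose without Brg1 deficient replicate 3. The interaction of Brg1 loss and Apc loss, the Brg1-Apc deficient minus Apc deficient difference less the Brg1 deficient minus control difference, had 0 genes past limma's test, against 0.796% of all genes above 0 and 0.271% below, and 2 at an unadjusted p under 0.05, against 11.5% of all genes. Its median was 0.09. Comparisons that share a group of mice are not independent of each other.

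**Figure D3:**
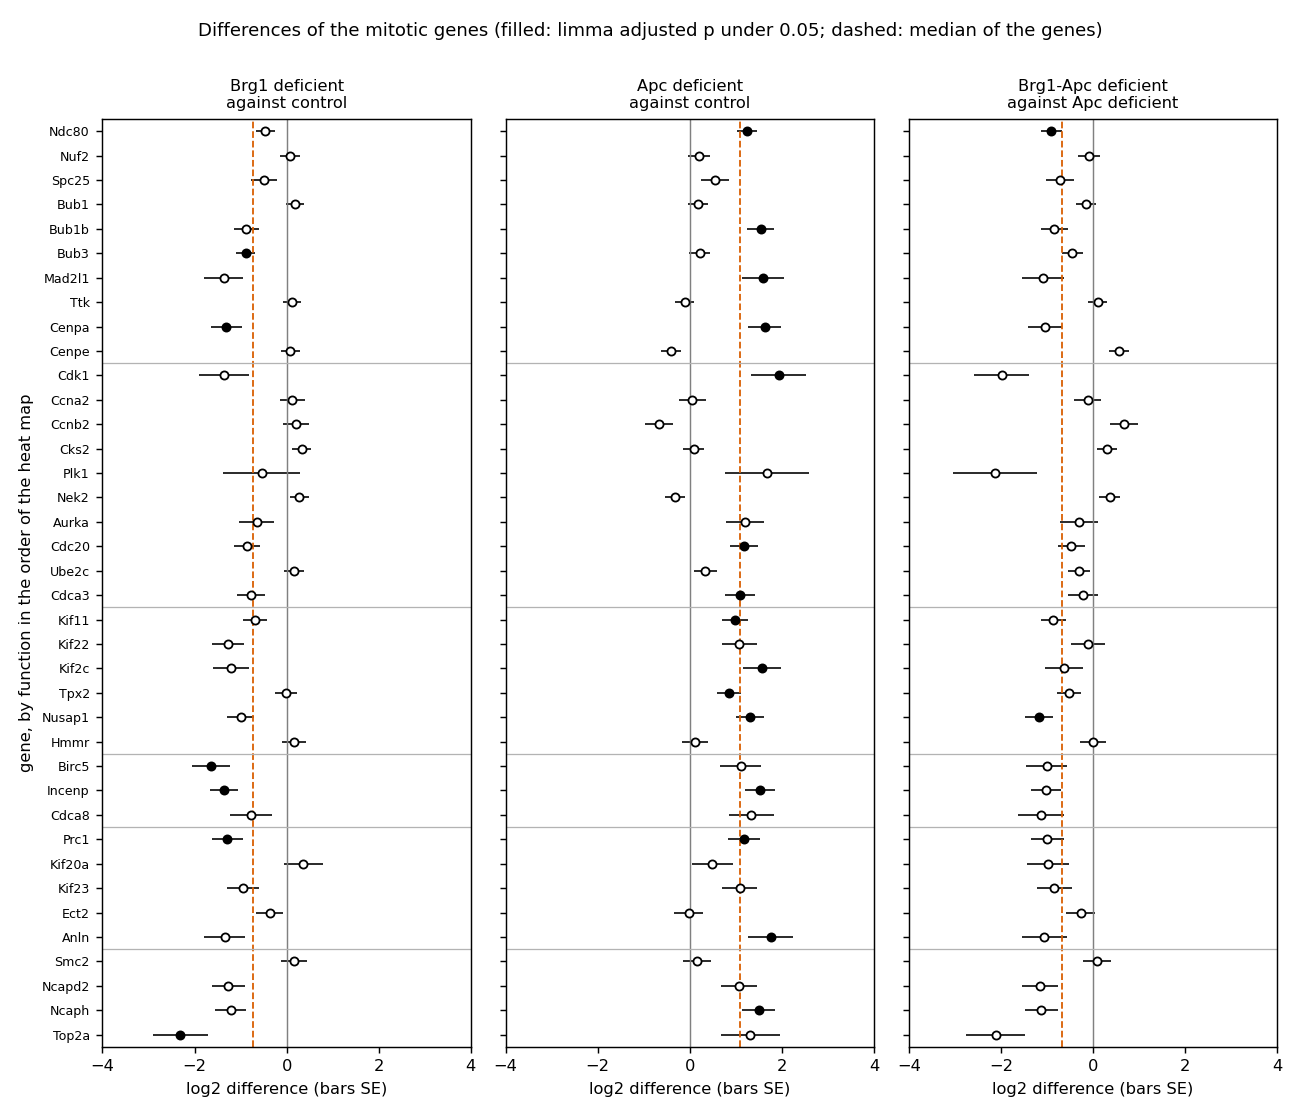
Differences of the 38 genes on the log2 scale with their standard errors, for Brg1 deficient relative to control, Apc deficient relative to control and Brg1-Apc deficient relative to Apc deficient mice. Filled points passed limma's adjusted p of 0.05, and the dashed lines are the medians of the 38 genes at -0.73, 1.08 and -0.67.

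In Apc deficient relative to control mice 4 of the 10 genes of the kinetochore and spindle checkpoint rose, and in Brg1 deficient relative to control mice 2 fell. Of all genes, 8.14% rose in the first comparison and 2.50% fell in the second. Ndc80, a subunit of the complex through which kinetochores grip microtubules, had 7.03, 6.23, 6.58 and 6.99 in Brg1-Apc deficient mice, 7.65, 7.77 and 7.41 in Apc deficient mice, 6.07, 5.72, 5.82 and 6.02 in Brg1 deficient mice, and 6.50, 6.66, 6.24 and 6.08 in control mice. All Apc deficient arrays lay above all others, and the Brg1 deficient arrays lay below every control array and near background. Ndc80 rose by 1.24 (SE 0.22, 2.36-fold) in Apc deficient relative to control mice (limma adjusted p = 0.00104) and fell by 0.90 (SE 0.22, 1.87-fold) in Brg1-Apc deficient relative to Apc deficient mice (limma adjusted p = 0.0197). Its difference between Brg1 deficient and control mice was -0.47 (SE 0.21, limma adjusted p = 0.280).

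Bub1b, the checkpoint protein BubR1, had 7.92, 7.56, 7.78 and 7.74 in Brg1-Apc deficient mice, 8.33, 9.24 and 8.21 in Apc deficient mice, 6.59, 6.50, 5.63 and 6.01 in Brg1 deficient mice, and 7.40, 7.46, 6.55 and 6.81 in control mice. The arrays of Apc deficient, Brg1-Apc deficient and control mice formed 3 bands without overlap, from high to low, and only Brg1 deficient and control arrays overlapped. Bub1b rose by 1.54 (SE 0.30, 2.90-fold) in Apc deficient relative to control mice (limma adjusted p = 0.00186) and rose by 1.57 (SE 0.27, 2.97-fold) in Brg1-Apc deficient relative to Brg1 deficient mice (limma adjusted p = 0.00214). It differed by -0.84 (SE 0.30, limma adjusted p = 0.102) between Brg1-Apc deficient and Apc deficient mice.

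Mad2l1, the checkpoint protein Mad2, had 9.91, 8.95, 9.91 and 9.67 in Brg1-Apc deficient mice, 10.65, 10.97 and 10.47 in Apc deficient mice, 9.17, 8.22, 6.70 and 6.87 in Brg1 deficient mice, and 9.10, 9.58, 8.64 and 9.10 in control mice. All 3 Apc deficient arrays lay above all others, and Brg1 deficient replicate 1 lay among the control and Brg1-Apc deficient arrays while replicates 3 and 4 lay lowest. It rose by 1.59 (SE 0.45, 3.01-fold) in Apc deficient relative to control mice (limma adjusted p = 0.0257) and rose by 1.87 (SE 0.42, 3.65-fold) in Brg1-Apc deficient relative to Brg1 deficient mice (limma adjusted p = 0.0125). Cenpa, the histone H3 variant of centromeres, had 11.49, 11.59, 11.80 and 11.38 in Brg1-Apc deficient mice, 12.46, 12.72 and 12.65 in Apc deficient mice, 10.65, 10.004, 8.59 and 9.48 in Brg1 deficient mice, and 11.48, 11.35, 10.39 and 10.74 in control mice. Brg1-Apc deficient arrays overlapped the control arrays, and 1 Brg1 deficient array, at 10.65, lay within the control range. It fell by 1.31 (SE 0.34, 2.48-fold) in Brg1 deficient relative to control mice (limma adjusted p = 0.0464) and rose by 1.62 (SE 0.37, 3.08-fold) in Apc deficient relative to control mice (limma adjusted p = 0.00571). Bub3, which recruits Bub1 and BubR1 to kinetochores, had 7.78, 7.11, 7.63 and 7.47 in Brg1-Apc deficient mice, 8.06, 8.15 and 7.64 in Apc deficient mice, 7.30, 6.53, 6.99 and 6.59 in Brg1 deficient mice, and 7.88, 7.79, 7.69 and 7.60 in control mice. Brg1 deficient arrays lay below every control array. Bub3 fell by 0.89 (SE 0.21, 1.85-fold) in Brg1 deficient relative to control mice (limma adjusted p = 0.0286).

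Among genes of mitotic entry and exit, 3 of 10 rose in Apc deficient relative to control mice and 0 passed the test by limma in Brg1 deficient relative to control mice, with 3 at an unadjusted p under 0.05, against 17.0% of all genes. By the adjusted p, 8.14% of all genes rose in the first comparison, and in the second 2.50% fell and 0.820% rose. Cdk1, the kinase that starts mitosis, had 9.10, 7.63, 9.05 and 8.36 in Brg1-Apc deficient mice, 10.51, 10.98 and 10.06 in Apc deficient mice, 9.07, 7.82, 6.31 and 5.70 in Brg1 deficient mice, and 8.89, 8.99, 7.80 and 8.67 in control mice. The Apc deficient arrays lay above all others, and the Brg1 deficient arrays spread over more than 3 log2 units. Cdk1 rose by 1.93 (SE 0.60, 3.81-fold) in Apc deficient relative to control mice (limma adjusted p = 0.0398) and differed by -1.98 (SE 0.60, limma adjusted p = 0.0539) between Brg1-Apc deficient and Apc deficient mice. Its Brg1 deficient minus control difference was -1.36 (SE 0.55, limma adjusted p = 0.233).

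Cdc20, an activator of the anaphase-promoting complex, had 10.39, 10.36, 10.36 and 9.80 in Brg1-Apc deficient mice, 10.50, 10.79 and 10.80 in Apc deficient mice, 8.97, 8.92, 7.82 and 8.96 in Brg1 deficient mice, and 9.96, 9.88, 9.22 and 9.02 in control mice. The Brg1-Apc deficient arrays lay just below the Apc deficient arrays and overlapped the control arrays, and all Brg1 deficient arrays lay below all control arrays. Cdc20 rose by 1.18 (SE 0.30, 2.26-fold) in Apc deficient relative to control mice (limma adjusted p = 0.0127) and rose by 1.56 (SE 0.28, 2.95-fold) in Brg1-Apc deficient relative to Brg1 deficient mice (limma adjusted p = 0.00233), while its Brg1-Apc deficient minus Apc deficient difference was -0.47 (SE 0.30, limma adjusted p = 0.418). Cdca3, a protein needed for entry into mitosis, had 11.43, 11.66, 11.41 and 11.01 in Brg1-Apc deficient mice, 11.29, 11.72 and 11.78 in Apc deficient mice, 10.54, 9.70, 8.69 and 10.02 in Brg1 deficient mice, and 10.61, 10.86, 10.23 and 10.33 in control mice. Brg1-Apc deficient and Apc deficient arrays overlapped, and both lay above all control arrays. It rose by 1.09 (SE 0.33, 2.13-fold) in Apc deficient relative to control mice (limma adjusted p = 0.0334) and rose by 1.64 (SE 0.30, 3.11-fold) in Brg1-Apc deficient relative to Brg1 deficient mice (limma adjusted p = 0.00321), with a difference of -0.22 (SE 0.33, limma adjusted p = 0.773) between Brg1-Apc deficient and Apc deficient mice.

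Aurka, a kinase of the spindle poles, had 9.78, 9.93, 9.76 and 9.69 in Brg1-Apc deficient mice, 9.56, 10.47 and 10.25 in Apc deficient mice, 8.84, 8.79, 6.86 and 8.49 in Brg1 deficient mice, and 9.40, 9.40, 8.22 and 8.58 in control mice. The Brg1-Apc deficient arrays lay above every control and Brg1 deficient array. Aurka rose by 1.54 (SE 0.38, 2.92-fold) in Brg1-Apc deficient relative to Brg1 deficient mice (limma adjusted p = 0.0222). Plk1, the polo-like kinase, is added after its values were seen: it had 4.82, 9.59, 9.20 and 9.56 in Brg1-Apc deficient mice, 10.59, 11.09 and 9.58 in Apc deficient mice, 8.85, 8.81, 7.01 and 8.12 in Brg1 deficient mice, and 9.50, 9.94, 7.73 and 7.81 in control mice. A single Brg1-Apc deficient array, at 4.82, lay below background beside 3 of its group between 9.20 and 9.59, and Plk1 passed the test in no comparison. The cyclin genes Ccna2 and Ccnb2, with Cks2, Nek2 and Ube2c, had probes at background in every group, at group means of 4.64 to 5.71, so their probes say little about these transcripts.

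Of the 6 spindle genes, 4 rose in Apc deficient relative to control mice and 1 fell in Brg1-Apc deficient relative to Apc deficient mice. The shares of all genes were 8.14% that rose in the first and 3.89% that fell in the second. Nusap1, which bundles microtubules around chromosomes, had 8.13, 8.19, 8.05 and 8.01 in Brg1-Apc deficient mice, 9.23, 9.26 and 9.33 in Apc deficient mice, 7.64, 6.93, 5.90 and 7.40 in Brg1 deficient mice, and 8.34, 8.09, 7.58 and 7.84 in control mice. The 3 Apc deficient arrays lay within 0.10 of each other and above all others, and Brg1-Apc deficient and control arrays overlapped. Nusap1 rose by 1.31 (SE 0.31, 2.48-fold) in Apc deficient relative to control mice (limma adjusted p = 0.00813), fell by 1.18 (SE 0.31, 2.26-fold) in Brg1-Apc deficient relative to Apc deficient mice (limma adjusted p = 0.0289) and rose by 1.13 (SE 0.29, 2.19-fold) in Brg1-Apc deficient relative to Brg1 deficient mice (limma adjusted p = 0.0275). The fall against Apc deficient mice had an adjusted p of 0.0537 to 0.116 when any Apc deficient array or Brg1-Apc deficient replicate 1, 3 or 4 was left out.

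Kif2c, a kinesin that takes apart microtubules at centromeres, had 8.97, 8.65, 9.16 and 8.59 in Brg1-Apc deficient mice, 9.29, 9.82 and 9.31 in Apc deficient mice, 7.20, 7.50, 5.49 and 6.62 in Brg1 deficient mice, and 8.48, 8.36, 6.88 and 7.91 in control mice. The Brg1-Apc deficient arrays lay above every control array and below every Apc deficient array. Kif2c rose by 1.57 (SE 0.42, 2.97-fold) in Apc deficient relative to control mice (limma adjusted p = 0.0169) and rose by 2.14 (SE 0.39, 4.41-fold) in Brg1-Apc deficient relative to Brg1 deficient mice (limma adjusted p = 0.00272), while Brg1-Apc deficient and Apc deficient mice differed by -0.63 (SE 0.42, limma adjusted p = 0.442).

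Kif22, a kinesin that moves chromosomes, had 10.17, 10.83, 10.24 and 10.21 in Brg1-Apc deficient mice, 10.25, 10.78 and 10.41 in Apc deficient mice, 8.83, 8.30, 6.82 and 8.54 in Brg1 deficient mice, and 9.77, 9.78, 9.03 and 9.03 in control mice. Brg1-Apc deficient and Apc deficient arrays overlapped and lay above every control array, and every Brg1 deficient array lay below the control arrays. It showed the largest of the 38 rises in Brg1-Apc deficient relative to Brg1 deficient mice, 2.24 (SE 0.35, limma adjusted p = 0.000925). Kif11, the kinesin that pushes spindle poles apart, had 7.45, 7.51, 7.59 and 7.24 in Brg1-Apc deficient mice, 8.23, 8.63 and 8.07 in Apc deficient mice, 7.21, 7.03, 5.89 and 6.41 in Brg1 deficient mice, and 7.58, 7.38, 6.92 and 7.42 in control mice. Only the Apc deficient arrays stood clear of the others. Kif11 rose by 0.99 (SE 0.28, 1.98-fold) in Apc deficient relative to control mice (limma adjusted p = 0.0236). Tpx2, an activator of Aurora A, rose by 0.85 (SE 0.26, 1.80-fold) in Apc deficient relative to control mice (limma adjusted p = 0.0365), with a control mean of 5.28 that is at background. Hmmr, a protein of spindle poles, was at background in all groups.

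All 3 measured genes of the chromosomal passenger complex were above background. Incenp, its scaffold, had 8.76, 9.11, 8.94 and 8.53 in Brg1-Apc deficient mice, 9.56, 10.09 and 9.90 in Apc deficient mice, 7.93, 7.29, 6.28 and 6.36 in Brg1 deficient mice, and 8.65, 8.51, 7.96 and 8.18 in control mice. The Apc deficient arrays lay above all others and the Brg1 deficient arrays below all others, while Brg1-Apc deficient and control arrays overlapped. Incenp fell by 1.36 (SE 0.31, 2.56-fold) in Brg1 deficient relative to control mice (limma adjusted p = 0.0224), rose by 1.53 (SE 0.33, 2.89-fold) in Apc deficient relative to control mice (limma adjusted p = 0.00428) and rose by 1.87 (SE 0.31, 3.66-fold) in Brg1-Apc deficient relative to Brg1 deficient mice (limma adjusted p = 0.00137). It had the smallest p of the 38 genes in Brg1 deficient relative to control mice, and the call there ended without control replicate 1 or 2 or Brg1 deficient replicate 3. Birc5, also called survivin, had 10.51, 10.02, 10.48 and 9.93 in Brg1-Apc deficient mice, 11.28, 11.45 and 10.996 in Apc deficient mice, 9.83, 9.19, 7.62 and 7.34 in Brg1 deficient mice, and 10.32, 10.54, 9.76 and 9.95 in control mice. A single Brg1 deficient array, at 9.83, lay within the control range. Birc5 fell by 1.65 (SE 0.41, 3.13-fold) in Brg1 deficient relative to control mice (limma adjusted p = 0.0390) and rose by 1.74 (SE 0.41, 3.34-fold) in Brg1-Apc deficient relative to Brg1 deficient mice (limma adjusted p = 0.0176). Its other 2 probes, at means of 8.58 and 8.78, did not pass in either comparison, with differences of -1.51 and -1.54 and of 0.53 and 0.86. In Brg1-Apc deficient relative to Apc deficient mice the first of them gave -2.32 (limma adjusted p = 0.0342), where the brightest probe of Birc5 gave -1.01 (adjusted p = 0.207). Cdca8, also called borealin, averaged 8.09 ± 0.62 in Brg1-Apc deficient mice, 9.21 ± 0.24 in Apc deficient mice, 7.10 ± 1.25 in Brg1 deficient mice and 7.87 ± 0.42 in control mice (SD, n = 4, 3, 4 and 4) and passed the test in no comparison.

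Of the 5 cytokinesis genes, 2 rose in Apc deficient relative to control mice and 1 fell in Brg1 deficient relative to control mice. The shares of all genes were 8.14% that rose in the first and 2.50% that fell in the second. Prc1, which bundles the central spindle, had 10.84, 10.84, 10.91 and 10.45 in Brg1-Apc deficient mice, 11.77, 12.10 and 11.38 in Apc deficient mice, 9.99, 9.51, 8.14 and 9.51 in Brg1 deficient mice, and 10.84, 11.11, 10.07 and 10.27 in control mice. Apc deficient arrays lay above and Brg1 deficient arrays below all others, and Brg1-Apc deficient and control arrays overlapped. Prc1 fell by 1.29 (SE 0.33, 2.44-fold) in Brg1 deficient relative to control mice (limma adjusted p = 0.0438), rose by 1.18 (SE 0.36, 2.26-fold) in Apc deficient relative to control mice (limma adjusted p = 0.0355) and rose by 1.47 (SE 0.33, 2.78-fold) in Brg1-Apc deficient relative to Brg1 deficient mice (limma adjusted p = 0.0119). Anln, anillin, a scaffold of the contractile ring, had 9.66, 8.65, 9.41 and 8.88 in Brg1-Apc deficient mice, 10.06, 10.60 and 9.97 in Apc deficient mice, 8.63, 7.47, 6.10 and 6.21 in Brg1 deficient mice, and 8.73, 9.12, 7.74 and 8.21 in control mice. The Apc deficient arrays lay above all others, and Brg1 deficient replicate 1, at 8.63, lay within the control range while the other 3 of its group lay below it. Anln rose by 1.76 (SE 0.49, 3.39-fold) in Apc deficient relative to control mice (limma adjusted p = 0.0221) and rose by 2.05 (SE 0.45, 4.14-fold) in Brg1-Apc deficient relative to Brg1 deficient mice (limma adjusted p = 0.0111), and its Brg1 deficient minus control difference was -1.35 (SE 0.45, limma adjusted p = 0.134). Kif23, a kinesin of the central spindle, averaged 9.06 ± 0.36 in Brg1-Apc deficient mice, 9.90 ± 0.24 in Apc deficient mice, 7.86 ± 0.91 in Brg1 deficient mice and 8.81 ± 0.43 in control mice (SD, n = 4, 3, 4 and 4) and passed the test in no comparison. Kif20a and Ect2 were at background in every group.

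Among condensin and chromosome structure genes, Ncaph, a subunit of condensin I, had 8.96, 8.56, 9.14 and 8.79 in Brg1-Apc deficient mice, 9.72, 10.36 and 9.88 in Apc deficient mice, 8.08, 7.75, 6.13 and 7.12 in Brg1 deficient mice, and 8.42, 8.80, 7.98 and 8.75 in control mice. All Apc deficient arrays lay above all others, and Brg1-Apc deficient arrays overlapped the control arrays. Ncaph rose by 1.50 (SE 0.36, 2.83-fold) in Apc deficient relative to control mice (limma adjusted p = 0.00849) and rose by 1.59 (SE 0.33, 3.02-fold) in Brg1-Apc deficient relative to Brg1 deficient mice (limma adjusted p = 0.00732), with differences of -1.22 (SE 0.33, limma adjusted p = 0.0594) in Brg1 deficient relative to control mice and -1.12 (SE 0.36, limma adjusted p = 0.0693) in Brg1-Apc deficient relative to Apc deficient mice. Ncapd2, another condensin I subunit, averaged 8.33 ± 0.37 in Brg1-Apc deficient mice, 9.48 ± 0.48 in Apc deficient mice, 7.15 ± 0.96 in Brg1 deficient mice and 8.42 ± 0.20 in control mice (SD, n = 4, 3, 4 and 4) and passed in no comparison. Smc2, an ATPase subunit that both condensins share, was at background in every group.

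Top2a, the topoisomerase that untangles DNA for chromosome segregation, had 8.78, 8.24, 8.78 and 8.43 in Brg1-Apc deficient mice, 10.96, 11.21 and 9.83 in Apc deficient mice, 9.20, 7.51, 6.24 and 5.23 in Brg1 deficient mice, and 9.50, 9.98, 8.53 and 9.41 in control mice. The Brg1-Apc deficient arrays lay below every Apc deficient array, and the Brg1 deficient arrays ran from 5.23, below background, to 9.20. Top2a fell by 2.31 (SE 0.59, 4.95-fold) in Brg1 deficient relative to control mice (limma adjusted p = 0.0452), the largest fall of the 38 genes in that comparison. Leaving out Brg1 deficient replicate 1, Apc deficient replicate 3 or control replicate 3 kept the call, and leaving out any other single array ended it. Its Brg1-Apc deficient minus Apc deficient difference was -2.11 (SE 0.64, limma adjusted p = 0.0566) and its Brg1-Apc deficient minus control difference -0.80 (SE 0.59, limma adjusted p = 0.553).

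**Figure D4:**
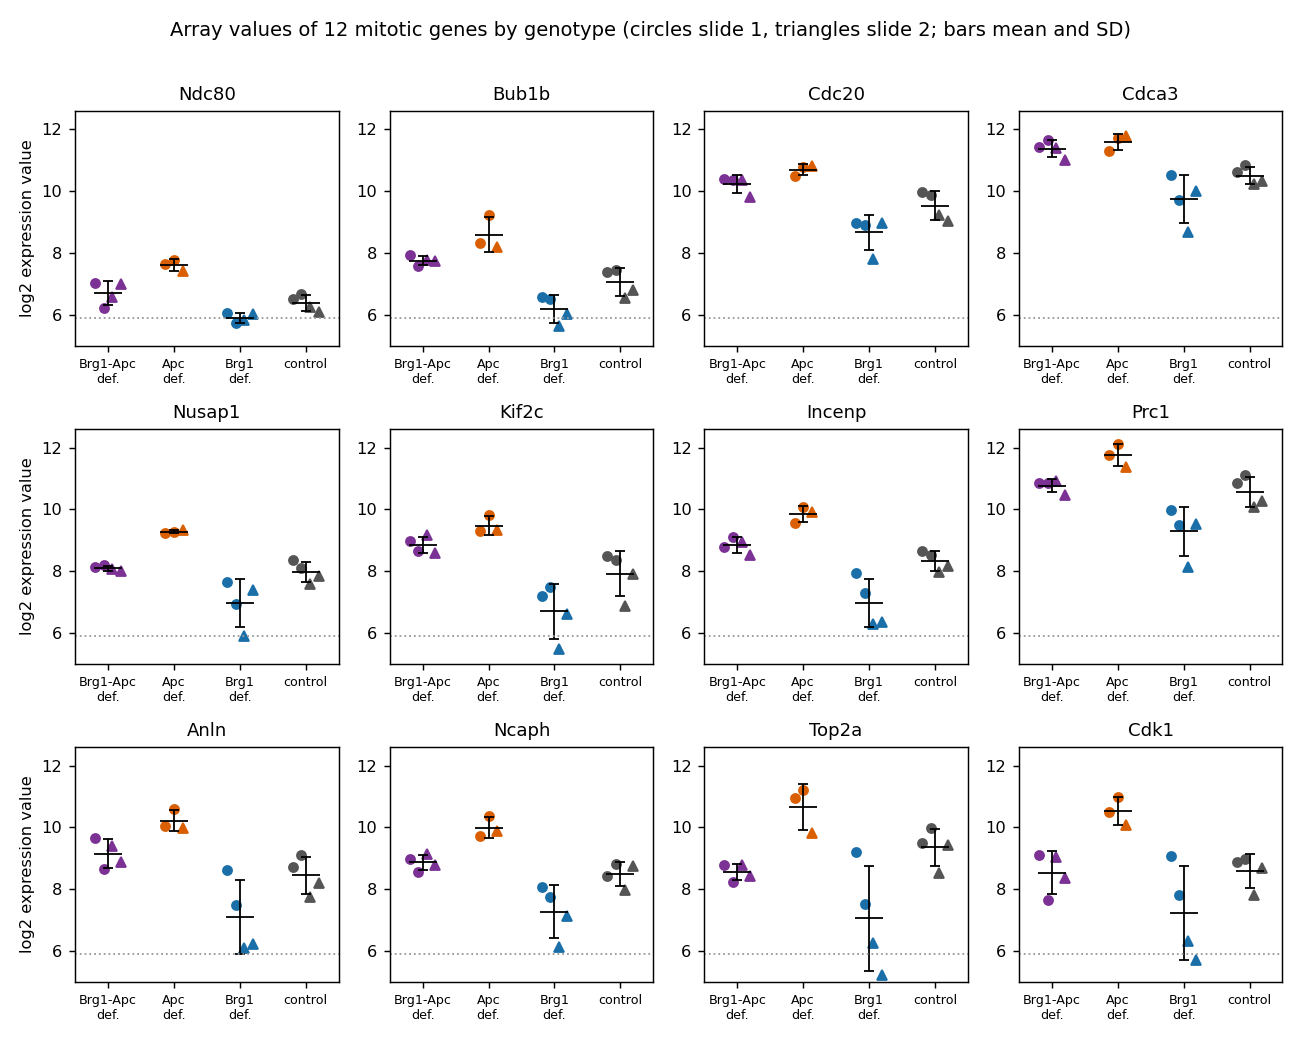
Log2 values of 12 mitotic genes on each array, in the order Brg1-Apc deficient, Apc deficient, Brg1 deficient and control. Points are arrays, circles on slide 1 and triangles on slide 2, horizontal bars are group means, error bars are SD (n = 4, 3, 4 and 4) and the dotted line is the background level of 5.90. Apc deficient points lie highest in most panels, and the Brg1 deficient points spread widest in Top2a and Cdk1.

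At the other end stood the genes with the largest p of their function. In Brg1 deficient relative to control mice these were Nuf2 of the Ndc80 complex with a difference of 0.08, Ccna2 with 0.13, Tpx2 with -0.02, Cdca8 with -0.77, Kif20a with 0.36 and Smc2 with 0.15. In Apc deficient relative to control mice they were the checkpoint kinase Ttk with -0.11, Ccna2 with 0.06, Hmmr with 0.10, Birc5 with 1.10, Ect2 with -0.03 and Smc2 with 0.15, and in Brg1-Apc deficient relative to Apc deficient mice Nuf2 with -0.08, Ccna2 with -0.12, Hmmr with -0.01, Birc5 with -1.01, Ect2 with -0.27 and Smc2 with 0.09. Of these, Birc5 and Cdca8 were above background and the others at it. For the 14 genes at background the median differences were 0.15, 0.09 and -0.05 in the same 3 comparisons, and the call of Tpx2 was the only one among them.

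The levels also differed by slide within a genotype. For the 24 genes above background, the arrays on slide 2 minus those on slide 1 had a median of -0.01 in Brg1-Apc deficient, -0.28 in Apc deficient, -1.25 in Brg1 deficient and -0.71 in control mice. In control mice all 24 genes were lower on slide 2, 22 of them without overlap, where 54.5% of the 7632 genes above background were lower on slide 2, 20.9% of the 7632 lay lower without overlap, and their median was -0.03. In Brg1 deficient mice 23 of the 24 were lower, 17 without overlap, against 59.3% and 30.8% of the 7632, with a median of -0.15. In Apc deficient mice, with 1 array on slide 2, these were 18 and 13, against 51.0% and 36.5%, with a median of -0.01. In Brg1-Apc deficient mice they were 13 and 5, against 49.1% and 15.1%, with a median of 0.01. With slide as a block, 10 genes fell in Brg1 deficient relative to control mice, 16 rose in Apc deficient relative to control mice and 4 fell in Brg1-Apc deficient relative to Apc deficient mice. Within slide 1, 0, 7 and 7 genes passed in these comparisons, and within slide 2, 3, 0 and 0 did. In Brg1-Apc deficient relative to Brg1 deficient mice 18 rose in the fit blocked on slide, 5 rose on slide 1 alone and 10 on slide 2 alone, with medians of 0.40 within slide 1 and 1.41 within slide 2.

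Of the 38 genes, 10 had more than 1 probe. Of their 17 other probes, 10 were at background and 7 above it. The second of the 4 Cdc20 probes by level, at a mean of 8.86, gave 1.51 in Apc deficient relative to control mice (limma adjusted p = 0.0156), beside 1.18 from the brightest. The dimmest Cdc20 probe gave -1.52 in Brg1-Apc deficient relative to Apc deficient mice (adjusted p = 0.0304), where the brightest gave -0.47. The other Cdca3 probe, at 8.49, gave 0.49 in Apc deficient relative to control mice (adjusted p = 0.485).

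Another 93 mitotic genes were measured on 5 further lists. In Apc deficient relative to control mice 31 of the 93 rose and 1 fell (33.3% and 1.08%), against 8.14% and 7.09% of all genes. In Brg1 deficient relative to control mice 1 rose and 5 fell (1.08% and 5.38%), against 0.820% and 2.50% of all genes. Of the 93, 9 fell and 0 rose in Brg1-Apc deficient relative to Apc deficient mice (9.68% fell), against 3.89% and 3.92% of all genes. The medians of the 93 were 0.56, -0.20 and -0.39 in this order, and those of all genes -0.03, 0.03 and 0.05. Ncapg2, a condensin II subunit, averaged 6.64 in Brg1-Apc deficient mice, 8.28 in Apc deficient mice, 5.69 in Brg1 deficient mice and 6.06 in control mice. It rose by 2.22 (SE 0.30) in Apc deficient relative to control mice (limma adjusted p = 0.000127) and fell by 1.64 (SE 0.30) in Brg1-Apc deficient relative to Apc deficient mice (adjusted p = 0.00326). The control mean of Ncapg2 lay just above the background level of 5.90, so the size of its rise is uncertain. Bora, a cofactor for activation of Plk1, fell by 2.26 (SE 0.44, 4.79-fold) in Brg1-Apc deficient relative to Apc deficient mice (limma adjusted p = 0.00452), and Shcbp1, a protein of the midbody, fell by 1.38 (SE 0.24, 2.60-fold) in Brg1-Apc deficient relative to Apc deficient mice (limma adjusted p = 0.00202). Iqgap3, a scaffold of the cell cortex, fell by 1.56 (SE 0.27, 2.95-fold) in Brg1 deficient relative to control mice (limma adjusted p = 0.00420), and Arpp19, an inhibitor of the mitotic phosphatase PP2A-B55, fell by 1.06 (SE 0.20, 2.08-fold) in Brg1 deficient relative to control mice (limma adjusted p = 0.00660). Mad2l1bp, which disarms the Mad2 checkpoint signal, rose by 0.99 (SE 0.21, 1.99-fold) in Brg1 deficient relative to control mice (limma adjusted p = 0.0150). In the anaphase-promoting complex, Anapc2 fell by 0.81 (SE 0.18, 1.76-fold) in Apc deficient relative to control mice (limma adjusted p = 0.00584) and Cdc16 fell by 1.29 (SE 0.30, 2.45-fold) in Brg1-Apc deficient relative to Apc deficient mice (limma adjusted p = 0.0132). Numa1, which gathers microtubules at the spindle poles, fell by 1.13 (SE 0.25, 2.19-fold) in Brg1 deficient relative to control mice (limma adjusted p = 0.0190), and Arhgef39 fell by 1.47 (SE 0.36, 2.76-fold) in Brg1 deficient relative to control mice (limma adjusted p = 0.0328). These calls were not refitted without single arrays.

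By group within these lists, the 2 genes with the smallest p in Apc deficient relative to control mice were Cenpn and Cenpi of the centromere, with differences of 1.50 and 1.91, Spag5 and Kif15 of the spindle, with 1.44 and 1.17, and Ncapg2 and Cdca5 of condensin and cohesin, with 2.22 and 1.50. Cdc25c, the phosphatase that activates Cdk1, rose by 1.23 (SE 0.22, 2.34-fold) in Apc deficient relative to control mice (limma adjusted p = 0.000955), and Shcbp1 and Kif4 of cytokinesis had differences of 1.16 and 1.13. In Brg1-Apc deficient relative to Apc deficient mice, Ska2 and Cenpi of the kinetochore had differences of -0.85 and -1.25, Kif4 and Depdc1b of the spindle -1.07 and -1.03, and Cdca5, the cohesin protector sororin, -1.18, all past the test. In Brg1-Apc deficient relative to control mice 3 of the 93 rose, Cenpn by 0.80, Anapc7 by 1.05 and Spag5 by 1.03, and 0 fell. That is 3.23% of the 93, against 3.65% of all genes. Against Brg1 deficient mice 23 rose and 0 fell, where 5.53% of all genes rose and 0.946% fell. Among the 23 was Cenpm, which rose by 1.49 (SE 0.22, 2.81-fold) in Brg1-Apc deficient relative to Brg1 deficient mice (limma adjusted p = 0.000681). In the interaction 0 passed limma's test, with 7 of the 93 at an unadjusted p under 0.05, against 11.5% of all genes.

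Of 11 measured regulators of these genes, Mybl2, which encodes B-Myb, averaged 8.56 in Brg1-Apc deficient mice, 9.81 in Apc deficient mice, 6.52 in Brg1 deficient mice and 7.67 in control mice. It rose by 2.14 (SE 0.30, 4.40-fold) in Apc deficient relative to control mice (limma adjusted p = 0.000162), fell by 1.16 (SE 0.28, 2.23-fold) in Brg1 deficient relative to control mice (limma adjusted p = 0.0322) and fell by 1.25 (SE 0.30, 2.38-fold) in Brg1-Apc deficient relative to Apc deficient mice (limma adjusted p = 0.0178). Foxm1 rose by 1.04 (SE 0.28, 2.06-fold) in Apc deficient relative to control mice (limma adjusted p = 0.0179) and rose by 1.16 (SE 0.26, 2.24-fold) in Brg1-Apc deficient relative to Brg1 deficient mice (limma adjusted p = 0.0115), and E2f4, which encodes a repressor subunit of the DREAM complex, rose by 0.82 (SE 0.19, 1.76-fold) in Apc deficient relative to control mice (limma adjusted p = 0.00748). The median over the 11 was -0.04 in both Apc deficient relative to control and Brg1 deficient relative to control mice.

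Genes that act in G1/S and DNA replication are set beside the mitotic genes here. Of 31 measured, 24 rose in Apc deficient relative to control mice, with a median of 1.41 against 1.08 for the mitotic genes, and 8 fell in Brg1 deficient relative to control mice, with a median of -0.75 against -0.73. In Brg1-Apc deficient relative to Apc deficient mice 6 fell, with a median of -0.71 against -0.67. Against control, 10 rose in Brg1-Apc deficient mice, with a median of 0.69 against 0.14, and 0 fell. Over all genes, in the same order, 8.14% rose, 2.50% fell, 3.89% fell and 3.65% rose. Cdt1, which licenses replication origins, averaged 9.78 in Brg1-Apc deficient mice, 10.43 in Apc deficient mice, 7.62 in Brg1 deficient mice and 8.44 in control mice, and Rrm2, a subunit of ribonucleotide reductase, averaged 8.14 in Brg1-Apc deficient mice, 8.62 in Apc deficient mice, 5.98 in Brg1 deficient mice and 6.82 in control mice. Both lay higher in Brg1-Apc deficient than in control mice, by 1.34 for Cdt1 (limma adjusted p = 0.00242) and by 1.31 for Rrm2 (adjusted p = 0.000779). Averaged per array against the control mean, the G1/S genes stood at 0.47 to 0.73 in Brg1-Apc deficient, 1.30 to 1.56 in Apc deficient and -1.19 to -0.06 in Brg1 deficient mice, with control arrays at -0.14 to 0.11. The difference between the 2 gene lists was not tested.

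**Figure D5:**
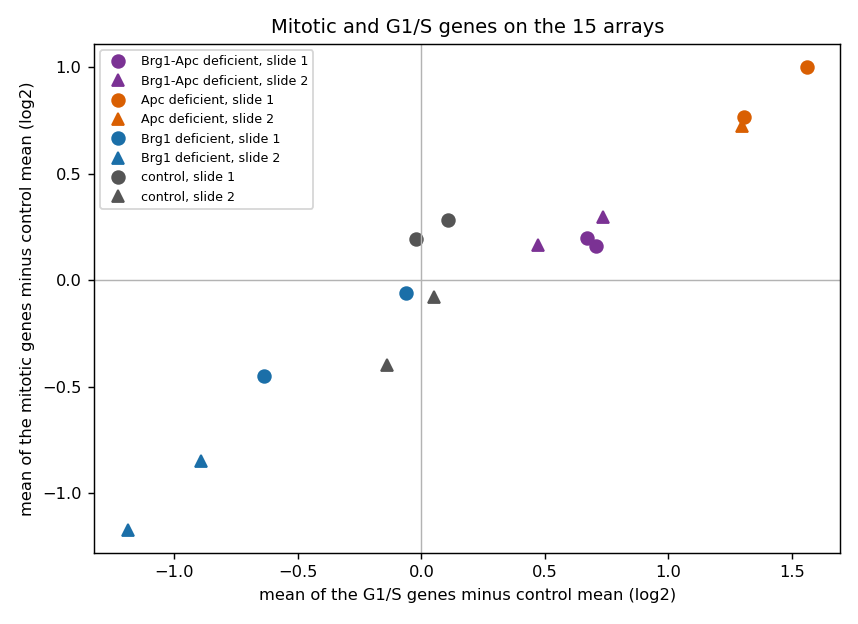
Mean of the 38 mitotic genes (vertical) against the mean of the 31 G1/S genes (horizontal) on each of the 15 arrays, both as log2 values minus the control mean, with colours for genotype and circles and triangles for slides 1 and 2. Of the 38 genes, 14 were at background. The Brg1-Apc deficient arrays lie to the right of the control arrays and at heights within the control range or just above it, up to 0.30, and the 2 gene means fall to their lowest on Brg1 deficient replicate 3.

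Markers of other cells moved with some of these comparisons. Crypt base stem cell markers averaged 8.06 to 8.67 per array in Brg1-Apc deficient, 9.72 to 10.11 in Apc deficient, 6.59 to 7.66 in Brg1 deficient and 8.02 to 8.41 in control mice. By group mean they followed the order of 18 of the 24 mitotic genes above background. Brg1-Apc deficient and control means were close, at 8.31 and 8.19, and their arrays overlapped. Between these groups single markers went both ways, 5 above and 3 below 0, from -3.11 to 1.30. Of these 8 markers, several of which are targets of Wnt signalling, 7, 8, 5 and 6 were above background in the same 4 groups. Enterocyte markers averaged 10.63 to 11.46, 9.59 to 10.76, 10.91 to 11.42 and 11.58 to 11.89 in the same 4 groups. Markers of T cells and intraepithelial lymphocytes, which can divide too, averaged 7.01 to 7.58 in Brg1-Apc deficient, 6.20 to 6.56 in Apc deficient, 7.26 to 8.17 in Brg1 deficient and 7.14 to 8.01 in control mice. In Apc deficient relative to control mice 5 of these 9 markers fell and 0 rose, against 7.09% of all genes that fell and 8.14% that rose. Markers of B and plasma cells averaged 5.47 to 6.29 on every array, near background, with 2 of 7 above it in each group. Markers of macrophages and dendritic cells averaged 5.72 to 6.02, 6.16 to 6.78, 5.70 to 6.68 and 6.13 to 6.50 in the 4 groups, and smooth muscle markers averaged 6.19 to 7.74, 6.82 to 7.19, 6.62 to 8.38 and 6.74 to 9.98. The part of these cells in the differences of the mitotic genes was not tested.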

How the data were processed

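Gene expression was measured on 1-colour Illumina bead arrays, 1 for each of 15 mice in 4 genotype groups, from epithelial RNA labelled with the TotalPrep-96 kit, per the labels' protocols. The authors deposited log2 values for 25695 probes, with array medians of 5.59 to 5.90 and no missing value; the sources used here do not give their background correction and normalization, or detection p-values, so values near the array medians were treated as background. Probes were named through the platform annotation: 23976 had 1 gene symbol and 1719 had none. The mitotic genes, their functions, the other lists and the tests were chosen with earlier results of these data known.

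Differences were fitted with limma 3.58.1 in R 4.3.3 as a mean per genotype over all 15 arrays, with 11 residual degrees of freedom, empirical Bayes moderation, two-sided tests and Benjamini-Hochberg adjustment over all 25695 probes at a threshold of 0.05. Counts use 1 probe per gene, the one with the highest mean. The script was first tested on simulated data. Tables and figures were made with Python 3.11.15, pandas 2.3.3 and matplotlib 3.10.9. Array values are given for the 2 genes of each function with the smallest p over 3 comparisons, for Cdk1 and Smarca4, and for further genes chosen after their values were seen. From the other lists only some of the genes past the test were named, and not for every list and comparison.

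Over all probes, arrays of the same replicate number deviated little together: over 21 pairs the correlation of deviations from the group means ran from -0.179 to 0.275, with 8 over 0.1, so the numbers were not used as pairs. Of the 24 mitotic genes above background, 22, 24, 0 and 6 lay above their group mean on control replicates 1 to 4. On Brg1 deficient replicates these were 24, 20, 1 and 7, on Brg1-Apc deficient ones 18, 12, 18 and 4, and on Apc deficient ones 6, 23 and 6. Alternatives were slide or replicate as a block, quantile normalization, the slides taken singly, median centring, probes above the median only, only the groups compared, array weights, the most variable probe per gene, and leaving out single arrays or doubtful arrays. Promoters were searched on both strands by exact match.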

Additional observations from a re-analysis of the deposited data

Results flagged for a closer look

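Of 120 sets of 4 arrays, 117 for 39 genes in the 3 groups of 4 and 3 for the mean of the 38 mitotic genes in those groups, 6 had 1 array that stood apart from the other 3 by Dixon's test, and chance flags about 1 in 20. Plk1 had a value of 4.82 on Brg1-Apc deficient replicate 1, against 9.20 to 9.59 on the other Brg1-Apc deficient arrays. In the same group Cdc20 had 9.80 on replicate 4, against 10.36 to 10.39, Prc1 had 10.45 on replicate 4, against 10.84 to 10.91, and Kif22 had 10.83 on replicate 2, against 10.17 to 10.24. Cdc20 had 7.82 on Brg1 deficient replicate 3, against 8.92 to 8.97 on the others of that group. Cks2, at background throughout, had 5.24 on control replicate 4, against 4.93 to 4.98. The causes were not tested.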

How the results depend on the processing

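No gene passed the test in the opposite direction in any of the 5 comparisons of groups under the alternatives run, but the counts moved. Within slide 1 alone 7 genes passed in Apc deficient relative to control, 0 in Brg1 deficient relative to control, 7 in Brg1-Apc deficient relative to Apc deficient and 5 in Brg1-Apc deficient relative to Brg1 deficient mice, and within slide 2 alone 0, 3, 0 and 10 passed in these. Slide as a block gave 10 in Brg1 deficient relative to control 4 in Brg1-Apc deficient relative to Apc deficient and 18 in Brg1-Apc deficient relative to Brg1 deficient mice, and in the first 2 of these quantile normalization gave 2 and 0, probes above the median 10 and 7, only the groups compared 0 and 15, and array weights 10 and 9. Only the groups compared gave 7 in Brg1-Apc deficient relative to Brg1 deficient and 3 in Brg1-Apc deficient relative to control mice, where array weights gave 1. Without control replicates 1 and 4, 7 passed in Apc deficient and 0 in Brg1 deficient relative to control mice. With single arrays left out the counts ran from 5 to 19 in Apc deficient relative to control, 0 to 15 in Brg1 deficient relative to control, 0 to 9 in Brg1-Apc deficient relative to Apc deficient, 10 to 21 in Brg1-Apc deficient relative to Brg1 deficient, and 0 to 2 in Brg1-Apc deficient relative to control mice, and stayed at 0 for the interaction.

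Over probes above the median, where 24 of the 38 genes were tested, the median was -1.10 in Brg1 deficient relative to control mice and 1.53 in Brg1-Apc deficient relative to Brg1 deficient mice. In the last comparison the median of the 38 genes was 0.40 within slide 1 and 1.41 within slide 2. With single arrays left out the medians ran from 0.94 to 1.20 in Apc deficient relative to control, -0.92 to -0.44 in Brg1 deficient relative to control, -0.78 to -0.48 in Brg1-Apc deficient relative to Apc deficient, 0.76 to 1.18 in Brg1-Apc deficient relative to Brg1 deficient and 0.03 to 0.24 in Brg1-Apc deficient relative to control mice, and from -0.08 to 0.17 for the interaction. Of the single genes, 1 value turned: Cdca3 had 0.0322 in Brg1-Apc deficient relative to Apc deficient mice within slide 1.

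With replicate number as a block, 15, 7, 2, 16 and 0 genes passed in Apc deficient relative to control, Brg1 deficient relative to control, Brg1-Apc deficient relative to Apc deficient, Brg1-Apc deficient relative to Brg1 deficient and Brg1-Apc deficient relative to control mice, and 0 for the interaction; the medians under this replicate block were 0.96, -0.73, -0.61, 0.90, 0.14 and 0.07. The causes of these shifts were not tested. Signal over background limits the 14 dim genes, and 3 or 4 arrays a group limit the rest.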
